A study of Mus musculus with 6 samples.

Results

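The Mu class glutathione transferases of mouse are encoded by 7 protein-coding genes, Gstm1 to Gstm7, and 3 of them, Gstm1, Gstm2 and Gstm7, were found in the table of 709 genes deposited for tibialis anterior (TA) muscle. They were chosen by name, as every row whose gene symbol begins with Gstm. The table holds RNA-seq values of 3 WT and 3 NS-DADm C57BL/6 mice (C57BL/6 J in the paper) aged 21 weeks, with 1 library per mouse, and was made to ask what muscle RNA looks like once HDAC3 can no longer deacetylate. Mice of the NS-DADm genotype carry knock-in mutations that include a missense mutation in the deacetylase-activating domain of the corepressor NCoR (Ncor1). The mutations are present in the whole body, so tissues other than muscle carry them too. The study's methods used male mice unless stated otherwise, and its controls were age-matched WT animals of that strain.

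Only genes that the authors had called as different between these same 6 libraries are in the table. The remaining 4 members, Gstm3, Gstm4, Gstm5 and Gstm6, have no value here, and each was either not called or not tested. For the 3 listed members, a difference between genotypes was therefore the condition for having a value, and the tests below are not independent evidence of it. The values are normalized read counts, which are reads per gene divided by a size factor of each library.

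Cytosolic glutathione transferases join the thiol of glutathione to electrophilic compounds, among them drugs, quinones and products of lipid peroxidation, which makes these compounds more soluble and easier to export. The enzymes are dimers, and members of a class can pair with each other. In mouse liver several Mu class genes are well-known targets of NRF2, a transcription factor that binds antioxidant response elements when cells meet oxidants or electrophiles. NCoR acts on another layer: it brings HDAC3 to nuclear receptors and other transcription factors, and HDAC3 gains deacetylase activity by binding a deacetylase-activating domain such as that of NCoR.

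The Mu class genes lie side by side on chromosome 3 of GRCm38, within 149 kb from 107895821 to 108044894 (GENCODE M21). Gstm7 occupies chr3:107926334-107931817, Gstm2 chr3:107981702-107986453 and Gstm1 chr3:108012255-108017973, all on the minus strand. Gstm6 and Gstm3, which were not listed, lie between Gstm7 and Gstm2, so the 3 listed genes do not form an unbroken block. Ncor1 lies on another chromosome, 11.

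**Figure D1:**
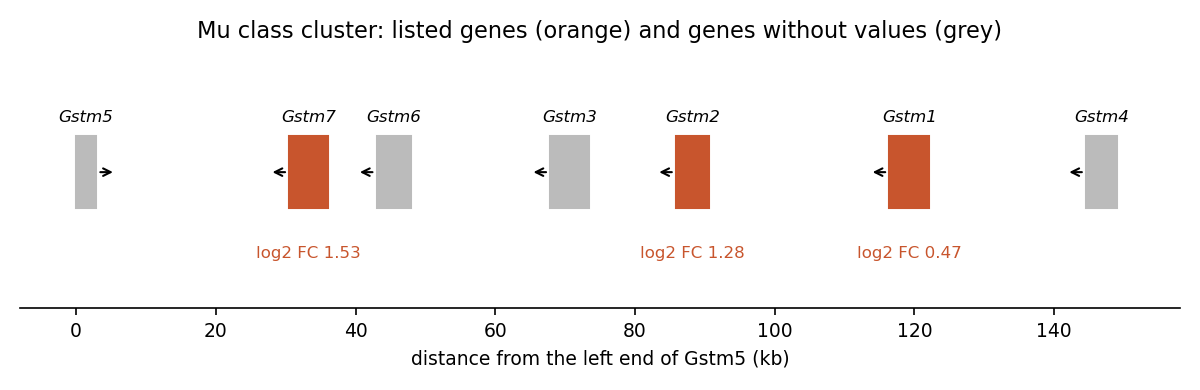
Map of the Mu class cluster, with distance in kb from the left end of Gstm5 on the x axis, boxes for genes drawn to scale and arrows for the direction of transcription. The listed genes Gstm7, Gstm2 and Gstm1 are orange with their log2 fold changes of 1.53, 1.28 and 0.47, and the 4 genes without a value are grey and lie among them.

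Because the 3 listed members moved in one direction, the 250 bases before the start of each are shown. The sequences are from RefSeq (GRCm38.p6), read 5′ to 3′ on the minus strand, at chr3:108017974-108018223 for Gstm1, chr3:107986421-107986670 for Gstm2 and chr3:107931818-107932067 for Gstm7. For Gstm1 and Gstm7, which have another RefSeq start, the start shared with the principal GENCODE transcript was taken. The RefSeq start of Gstm2 lies 33 bases downstream of its principal GENCODE start, so the end of its window lies inside the gene. Capitals mark matches to the motifs named after the sequences.
Gstm1: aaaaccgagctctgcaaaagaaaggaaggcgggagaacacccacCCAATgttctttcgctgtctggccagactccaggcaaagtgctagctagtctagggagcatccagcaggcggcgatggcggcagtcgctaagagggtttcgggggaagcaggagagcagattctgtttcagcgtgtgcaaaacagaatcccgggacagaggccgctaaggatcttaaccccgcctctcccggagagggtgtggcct
Gstm2: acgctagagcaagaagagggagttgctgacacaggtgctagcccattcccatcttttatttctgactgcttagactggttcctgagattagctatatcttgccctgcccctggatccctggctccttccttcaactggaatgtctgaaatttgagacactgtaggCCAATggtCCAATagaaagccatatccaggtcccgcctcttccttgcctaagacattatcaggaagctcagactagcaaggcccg
Gstm7: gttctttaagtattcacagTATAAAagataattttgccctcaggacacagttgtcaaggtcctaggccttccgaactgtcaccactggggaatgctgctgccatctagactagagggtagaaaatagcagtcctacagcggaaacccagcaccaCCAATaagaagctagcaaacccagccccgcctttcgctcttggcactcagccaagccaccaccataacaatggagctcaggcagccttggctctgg

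A set of 5 motifs was searched on both strands: the CCAAT box (CCAAT), the TATA box (TATAAA), the core of the antioxidant response element (TGACNNNGC), the nuclear receptor half-site (AGGTCA) and an E-box (CAGCTG). None of these patterns contains another, but the half-site read on the opposite strand (TGACCT) can overlap the antioxidant core. A CCAAT box was present in the windows of Gstm1, Gstm2 and Gstm7, and 33.8% of 32851 RefSeq promoter windows of this length hold it. In Gstm2 it occurred at 2 places, 85 and 77 bases before the RefSeq start. The Gstm7 window shown also held a TATA box, 231 to 226 bases before the start, a motif held by 12.4% of windows. The antioxidant response element core, held by 10.2% of windows, and the half-site, held by 14.0%, were in none of the 3 windows shown. The window of the other Gstm7 start held 1 antioxidant core, TGACAAAGC, 129 to 121 bases before that start. That start lies 203 bases downstream of the principal one, so the match lies downstream of the principal start, inside the gene. The window of the other Gstm1 start, 155 bases downstream, held a TATA box 30 bases before it, which is also downstream of the principal start. These matches describe letters and were not tested for binding.

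Gstm1, the most abundant of the 3, was moderately higher in NS-DADm muscles. Its normalized counts were 1463, 1366 and 1190 in WT1, WT2 and WT3, and 1905, 2032 and 1647 in NS-DADm1, NS-DADm2 and NS-DADm3. The groups did not overlap, but the lowest NS-DADm library was only 1.13-fold above the highest WT library. The means were 1340 ± 139 (SD, n = 3) in WT and 1862 ± 196 (SD, n = 3) in NS-DADm, a ratio of 1.39. Within each genotype the highest library was 1.23-fold above the lowest, so the distance between genotypes was larger than the spread among mice but of a similar order.

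Gstm2 showed the clearest separation of the genotypes. In WT muscles it had 540, 430 and 461 normalized counts, and in NS-DADm muscles 1261, 1241 and 991. Each NS-DADm library was at least 1.84-fold above every WT library. The mean rose from 477 ± 56.7 (SD, n = 3) to 1164 ± 150 (SD, n = 3), a ratio of 2.44. The coefficient of variation was 11.9% in WT and 12.9% in NS-DADm, close to that of Gstm1 at 10.3% and 10.5%.

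Gstm7 was scarce, and its ratio between genotypes was the largest of the 3. In WT muscles its normalized counts were 49.8, 26.4 and 21.1, and NS-DADm muscles had 79.2, 93.2 and 96.6. WT1 stood above the other WT libraries, yet the lowest NS-DADm library was still 1.59-fold above it. The means were 32.4 ± 15.3 (SD, n = 3) and 89.6 ± 9.20 (SD, n = 3), a ratio of 2.76. These values rest on few reads, 55, 29 and 22 in WT and 75, 97 and 80 in NS-DADm. Counting error alone would give a coefficient of variation of 16.8% in WT, where 47.0% was observed, and of 10.9% in NS-DADm, where 10.3% was observed.

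**Figure D2:**
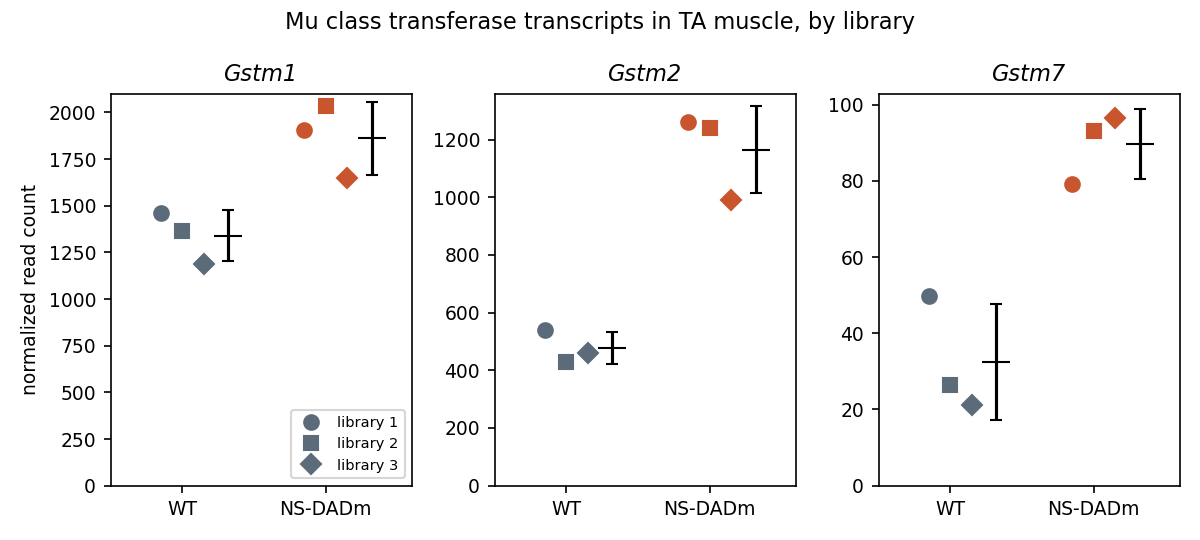
Normalized read counts (y axis, from 0) of Gstm1, Gstm2 and Gstm7 in the 3 WT and 3 NS-DADm libraries, with 1 point per library and the mean with its SD beside them. The NS-DADm points lie above the WT points for each gene, with the widest relative gap in Gstm2 (lowest NS-DADm 1.84-fold above highest WT) and the narrowest in Gstm1 (1.13-fold).

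The order of the libraries within a genotype was not shared by the 3 genes. WT1 was the highest WT library for each of them. Among the NS-DADm libraries, NS-DADm3 was the lowest for Gstm1 and Gstm2 and the highest for Gstm7.

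The genotypes were compared with limma on log2(normalized count + 1), a scale that shrinks the change of scarce genes a little, with Benjamini-Hochberg adjustment over the 709 listed genes. The log2 fold change (NS-DADm minus WT) was 0.47 for Gstm1 (standard error 0.12, limma adjusted p = 0.00281), 1.28 for Gstm2 (standard error 0.13, limma adjusted p = 3.31e-05) and 1.53 for Gstm7 (standard error 0.30, limma adjusted p = 0.00119). Of all listed genes, 50.9% were called higher in NS-DADm by the same rule, and 49.1% lower. No overlap between the genotypes was seen in 97.9% of the listed genes, and 49.5% were higher without overlap. Since the listing fixed that members differ, their count of 3 called and 3 without overlap is read only as a description. By log2 fold change Gstm7 ranked 52, Gstm2 70 and Gstm1 297 among the 361 higher genes, whose median log2 fold change was 0.69.

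A stricter adjustment took all 49997 genes of the RefSeq table as tested, with the unlisted genes set to the largest possible value, and left 11.4% of the listed genes called higher. Under it Gstm2 kept a limma adjusted p of 0.00233, whereas Gstm7 (0.0836) and Gstm1 (0.198) missed the threshold of 0.05. It changed only the number of tests, and the p-values still came from the fit to the listed genes, so it does not undo their selection. An exact two-sided permutation test of each gene gave p = 0.1, the smallest value that 3 mice against 3 allow.

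Whether the members responded by different amounts was asked with their ratios inside each library, which do not depend on the size factor apart from the added 1. Each member was listed for differing between these same libraries, and a scarce gene needs a larger change for that. The listing can therefore favour larger changes in the scarcer members, and the ratios are read as descriptions. Gstm2 reads per Gstm1 read were 0.369, 0.314 and 0.387 in WT and 0.662, 0.610 and 0.601 in NS-DADm. Any NS-DADm library thus had a higher ratio than any WT library. On the log2 scale the difference between genotypes in this ratio was 0.81 ± 0.10 (standard error).

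Gstm7 reads per Gstm1 read were 0.0340, 0.0193 and 0.0178 in WT and 0.0416, 0.0458 and 0.0586 in NS-DADm, again without overlap, and the log2 difference was 1.05 ± 0.32 (standard error). Gstm7 reads per Gstm2 read overlapped between genotypes, at 0.0923, 0.0614 and 0.0458 in WT and 0.0628, 0.0751 and 0.0974 in NS-DADm. Here the log2 difference was 0.24 ± 0.34 (standard error), so these data do not separate the responses of Gstm7 and Gstm2. Exact two-sided permutation tests over the 6 libraries gave p = 0.1, 0.1 and 0.5 for the 3 pairs (adjusted over the pairs 0.15, 0.15 and 0.5), where 0.1 is the smallest value possible.

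**Figure D3:**
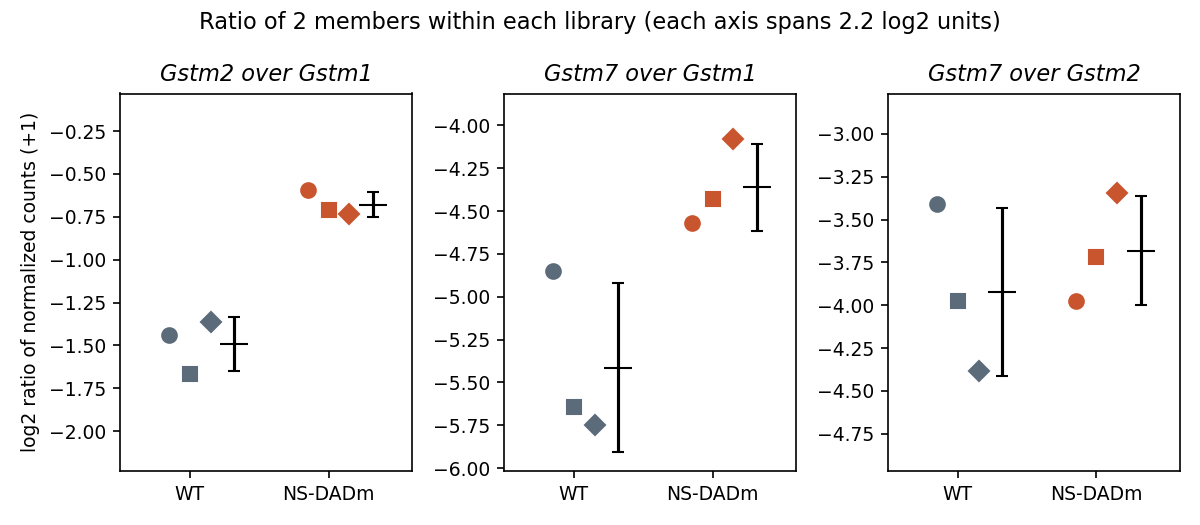
Log2 ratio of the normalized counts (+1) of 2 members within each library (y axis, each spanning 2.2 log2 units), with 1 point per library and the mean with its SD. Gstm2 over Gstm1 and Gstm7 over Gstm1 are higher in each NS-DADm library than in each WT library, by 0.81 and 1.05 on average, and Gstm7 over Gstm2 overlaps.

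Levels of different genes were compared per kilobase of the principal GENCODE transcript, which measures 1289 bases for Gstm1, 1064 for Gstm2 and 1377 for Gstm7. On this scale Gstm1 was the highest, Gstm2 next and Gstm7 lowest in every library. In WT the levels were 1039 ± 108 (SD, n = 3), 448 ± 53.3 (SD, n = 3) and 23.6 ± 11.1 (SD, n = 3) normalized reads per kb. In NS-DADm they were 1444 ± 152 (SD, n = 3), 1094 ± 141 (SD, n = 3) and 65.1 ± 6.68 (SD, n = 3). The lowest Gstm1 level of the NS-DADm libraries, 1278, was above the highest Gstm2 level, 1185, so neighbours in the order did not overlap in either genotype.

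The make-up of the listed Mu class transcripts differed between the genotypes for Gstm1 and Gstm2, without overlap. Gstm1 made up 68.8% ± 2.32 (SD, n = 3) of their summed per-kilobase level in WT and 55.5% ± 1.01 (SD, n = 3) in NS-DADm. Gstm2 took 29.7% ± 2.23 (SD, n = 3) in WT and 42.0% ± 1.41 (SD, n = 3) in NS-DADm. Gstm7 took 1.52% ± 0.555 (SD, n = 3) in WT and 2.53% ± 0.493 (SD, n = 3) in NS-DADm, and here WT1, at 2.15%, overlapped NS-DADm1, at 2.11%. The summed level was 1511 ± 155 (SD, n = 3) in WT and 2604 ± 284 (SD, n = 3) in NS-DADm. Of the amount by which the NS-DADm mean exceeded the WT mean, Gstm2 accounted for 59.1%, Gstm1 for 37.1% and Gstm7 for 3.80%. With the union of all annotated exons as the length, 1679 bases for Gstm2, the order was the same and the share of Gstm2 was 23.4% in WT and 34.4% in NS-DADm. By that length the excess was split more evenly, with 51.2% from Gstm2, 44.3% from Gstm1 and 4.47% from Gstm7. Members that have no value here are not part of these sums.

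**Figure D4:**
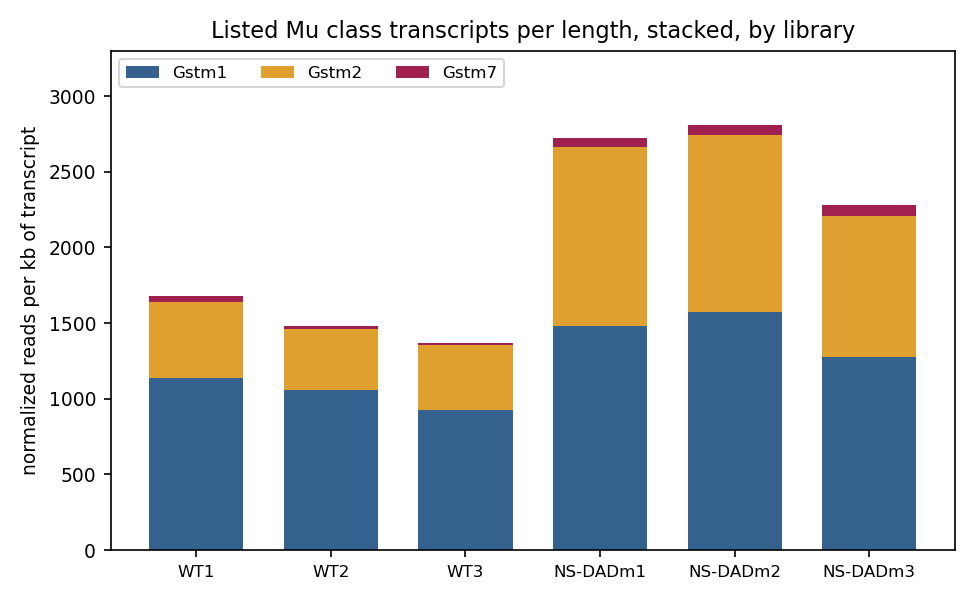
Normalized reads per kb of principal transcript (y axis, from 0) of Gstm1, Gstm2 and Gstm7, stacked, in each of the 6 libraries. The WT stacks reach 1372 to 1679 and the NS-DADm stacks 2280 to 2811, and the Gstm2 part widens most.

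Mu class genes resemble each other in sequence, and reads of one can align to another. The principal transcripts of Gstm1 and Gstm2 were identical at 77.3% of aligned bases, those of Gstm1 and Gstm7 at 73.8%, and those of Gstm2 and Gstm7 at 75.1%. Gstm1 and the unlisted Gstm3 were closest, at 87.0%. Of the 50-base windows of the Gstm1 transcript, 23.1% occur in a transcript of another gene, most often the pseudogene Gstm2-ps1 on chromosome 5, and 0.887% occur in Gstm2. For Gstm2 the share was 9.36%, mostly with the neighbouring pseudogene Gm12499, and for Gstm7 it was 0 of 1328 windows. The read length is not stated, and the aligner behind the table is unsettled (STAR with default settings per the paper, TopHat2 per the submitters' notes), so how reads with several matches were counted is not known, and the counts of Gstm1 and, less so, Gstm2 are uncertain to that extent. Only the principal transcript of each gene was searched for exact matches, so its other exons and alignments with mismatches were not checked.

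The other genes of glutathione and redox metabolism were taken from 6 lists with 162 different symbols, of which 159 were found in GENCODE M21. The deposited table held 11 of them, 7 higher and 4 lower in NS-DADm, and the others have no value. For comparison, the 709 listed genes are 1.42% of the genes in the RefSeq table, and 50.9% of them were called higher, so the counts of each list below are descriptions. Of 27 symbols for other transferases and relatives, 2 were listed, in opposite directions. Clic4, a chloride intracellular channel protein with a transferase-like fold, was 1.75-fold higher and went from 533 ± 87.0 (SD, n = 3) in WT muscles to 934 ± 121 (SD, n = 3) in NS-DADm muscles. Mgst3, a microsomal transferase of another protein family, was 1.37-fold lower, at 1191 ± 109 (SD, n = 3) against 1636 ± 188 (SD, n = 3).

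Of 26 symbols for glutathione synthesis, breakdown and transport, Lap3 was listed. This leucine aminopeptidase, which can split the cysteinylglycine released from glutathione, was 1.40-fold lower (limma adjusted p = 0.00228). Of 36 redox enzymes, 4 were listed. Glrx, the glutaredoxin that reduces disulfides with glutathione, was 1.59-fold higher, and catalase (Cat), which breaks down hydrogen peroxide, 1.54-fold higher. The peroxiredoxins Prdx2 and Prdx5, peroxidases that draw on thioredoxin, were each lower, with WT means 1.29-fold and 1.28-fold above the NS-DADm means.

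Of 15 symbols for enzymes that supply NADPH, which glutathione reductase needs to regenerate glutathione, 3 were listed and higher. Idh2, the mitochondrial NADP-dependent isocitrate dehydrogenase, had 2492 ± 199 (SD, n = 3) normalized counts in WT and 4422 ± 453 (SD, n = 3) in NS-DADm, a ratio of 1.77. Mthfd2, a mitochondrial folate enzyme, was 2.84-fold higher, from 50.1 ± 8.66 (SD, n = 3) to 142 ± 41.6 (SD, n = 3). Me1, the cytosolic malic enzyme, is also counted among 36 symbols of the NRF2 pathway and its targets, of which it and Nqo1 were listed. Nqo1, a quinone reductase and a standard NRF2 target, had 234 ± 62.4 (SD, n = 3) normalized counts in WT muscles and a 1.62-fold higher mean of 380 ± 41.6 (SD, n = 3) in NS-DADm muscles. Of 33 symbols for other conjugation and carbonyl detoxification enzymes, 0 were listed, and since the table shows called genes only, tests below the threshold cannot be counted. Adjusted over the RefSeq table, Idh2 (0.00901), Mthfd2 (0.0309) and Clic4 (0.0431) stayed under 0.05 in limma and the other 8 did not.

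**Figure D5:**
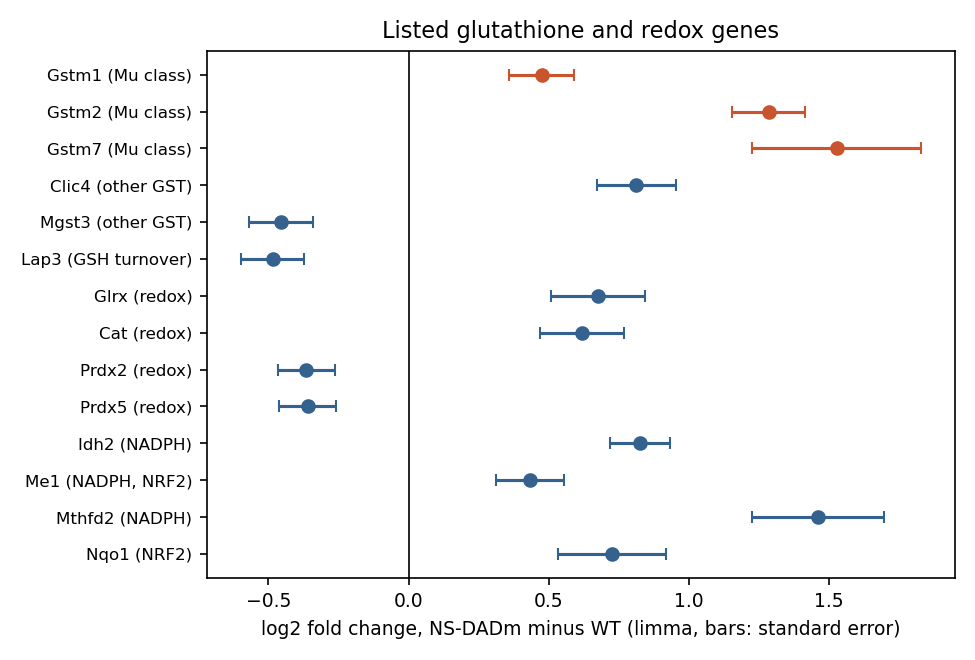
Log2 fold change (x axis, NS-DADm minus WT, from limma) with its standard error for the 3 Mu class genes (orange) and the 11 other listed genes of glutathione and redox metabolism (blue). Gstm7, Mthfd2 and Gstm2 lie farthest to the right, and Mgst3, Lap3, Prdx2 and Prdx5 lie left of 0.

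Genes with the most similar profile were found by the root mean square difference, over the 6 libraries, between log2 values centred on each gene's own mean. All 708 other listed genes were compared, and each of them was itself selected for a difference between the genotypes, which this measure includes. For Gstm1 the nearest were Kif16b, a kinesin of endosome transport, at 0.036, Uggt1, a folding sensor of the endoplasmic reticulum, at 0.053, and Me1 at 0.054. For Gstm2 they were Ankrd6 at 0.058, Acss1, a mitochondrial acetyl-CoA synthetase, at 0.12, and Deptor, an inhibitor of mTOR, at 0.14. Gstm7 was nearest to the noncoding RNA Pvt1 at 0.21, the integrin subunit Itgae at 0.23 and AC133498.1 at 0.25. The members were not each other's nearest genes. Gstm2 ranked 17 in likeness to Gstm7 and 270 in likeness to Gstm1.

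In bulk muscle, fewer cells of a type and less RNA per cell cannot be told apart. Of 76 markers of muscle fibers and 11 other cell types, 5 were listed. The fiber genes Actn3 and Myl1 were among them and were abundant in all libraries, with a sum of 188394 to 220132 normalized counts in WT and 217208 to 251183 in NS-DADm. They moved in opposite directions, Actn3 from a mean of 140315 in WT to 191127 in NS-DADm and Myl1 from 62110 to 47217. Of 8 macrophage markers, Mrc1 was listed, at 120 to 144 in WT and 224 to 296 in NS-DADm. Of 6 lymphocyte markers, Igkc and Igha were listed, and their sum was 0.960 to 12.7 in WT and 42.3 to 103 in NS-DADm. No marker of fibroblasts, adipocytes, endothelial cells, smooth muscle, satellite cells, Schwann cells, tenocytes, red cells or hepatocytes was listed, so their levels are not known here. The part of other cell types in the Mu class differences was not tested.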

How the data were processed

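RNA-seq of TA muscle was available from 3 WT and 3 NS-DADm mice. The values in the authors' deposited table are normalized counts (unit: signal), made by dividing each library's reads per gene by its size factor. The build was mm10 (GRCm38). The paper names STAR, the submitters' processing notes TopHat2 (2.1.0), HTSeq and DESeq2 (1.8.2), and neither gives the annotation release. The deposited table was limited to genes with an authors' adjusted p under 0.05 (709 of 709 rows). Its columns of fold changes, p-values and group means were not used otherwise.

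In each library 100% of values were whole multiples, within 0.01 reads, of 1 step of 0.905 to 1.21 normalized counts, taken as 1 read. Reads over the listed genes were 1047804 to 1411470 per library, which is not the total depth. Libraries were grouped by sample title. Log2(normalized count + 1) was tested with limma 3.58.1 (R 4.3.3; mean-variance trend, two-sided, no filter), a step tested on simulated data. The lowest mean was 12.2. Member ratios were tested by exact permutation. Gene positions and transcripts are from GENCODE M21, and 706 of 709 identifiers matched, 613 with the same version. Promoters are from RefSeq. Of the 3 members, 3 matched a promoter.

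Named genes were the 3 members, the listed genes of the pathway lists, and the 3 nearest profiles per member. Outside that rule, listed cell type markers came from the marker lists, and the genes near the cluster were picked with their values in view. The members and lists were chosen with earlier results of these data known. Alternatives were other scalings, pseudocounts, a filter at a mean of 50, limma without trend, a wider adjustment, the replicate block and leaving out each library.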

Additional observations from a re-analysis of the deposited data

How the results depend on the processing

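A member's fold change was taken as kept if its direction and its side of the threshold held. A count of called genes was taken as kept if it stayed within a set factor of the main count. Of 70 alternative values from limma, 66 met this rule. The 4 that did not came from adjusting over all 49997 genes of the RefSeq table, which by construction lowers the calls of limma, to 81 higher and 84 lower genes from 361 and 348, and under which Gstm1 (log2 fold change 0.47, adjusted p = 0.198) and Gstm7 (1.53, adjusted p = 0.0836) missed the threshold. The 27 of the member ratios kept their direction, and their permutation tests could not reach 0.05 under any setting. The log2 difference ranged from 0.72 to 0.87 for Gstm2 to Gstm1 and from 0.88 to 1.33 for Gstm7 to Gstm1. With any 1 NS-DADm library left out, the exact permutation p was 0.2 for Gstm7 to Gstm1 and 0.1 for Gstm2 to Gstm1. Over the alternatives the log2 fold change ranged from 0.37 to 0.56 for Gstm1 (adjusted p 0.00177 to 0.198 in limma), 1.21 to 1.40 for Gstm2 (2.71e-05 to 0.00233) and 1.28 to 1.88 for Gstm7 (3.55e-04 to 0.0836). With any 1 library left out these were 0.39 to 0.56, 1.21 to 1.40 and 1.28 to 1.88, and 358 to 361 higher and 345 to 348 lower genes. Of the 3 ratios, none of which was called, that of Gstm7 to Gstm2 moved from 0.24 to 0.01 without WT3 and to 0.50 without WT1. The labels do not say whether replicate numbers pair the mice. Libraries with the same number deviated from their group means with correlations of -0.15, 0.15 and 0.05, which does not settle it. Under the replicate block 361 and 348 genes were called, the adjusted p was 0.00413 for Gstm1, 6.14e-04 for Gstm2 and 0.00474 for Gstm7 in limma, and no call changed. The count test planned for recovered reads was not run, because too few low values were present to establish whole reads by the set criterion. Gstm7, at an inferred 22 to 97 reads per library, is limited most by depth. The selection of the listed genes on these libraries makes part of this stability built in.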

Other observations

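Within 1 Mb of the Mu class cluster, 4 other genes of chromosome 3 were listed, and their directions were mixed. Sort1, a sorting receptor for proteins leaving the Golgi, lies 0.239 Mb away and was 1.42-fold higher in NS-DADm muscles, at 1918 ± 310 (SD, n = 3) normalized counts against 1347 ± 120 (SD, n = 3) in WT. Celsr2, a cadherin of planar cell polarity, lies 0.346 Mb away and was 2.22-fold lower, at 166 ± 20.9 (SD, n = 3) against 368 ± 106 (SD, n = 3). On the other side of the cluster, Slc6a17, a vesicular transporter of neutral amino acids in neurons, was 2.89-fold lower at 0.378 Mb. Kcnc4, a voltage-gated potassium channel, was 1.35-fold higher at 0.436 Mb, at 4384 ± 543 (SD, n = 3) against 3245 ± 267 (SD, n = 3). These 4 genes were looked up after the data had been seen, and no test of the neighbourhood was made.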
